A study of Danio rerio with 10 samples.

Results

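Claudins are the strand-forming membrane proteins of tight junctions. They were taken as all rows of the 2 deposited zebrafish tables whose Ensembl gene name begins with cldn followed by a number or a letter, with names beginning in cldnd set aside. That rule gave 28 genes of the 25029 genes listed in either table. Of these, 24 were listed in caudal fins and 26 in ventricles, with 22 in both. *cldn10l2* and *cldn15la* were listed in fins alone, and *cldn10b*, *cldn15a*, *cldng* and *cldnj* in ventricles alone. All 28 are annotated as protein-coding, on 13 chromosomes of the GRCz11 assembly. *cldnd* itself, which the rule left out, had at most 2 normalized counts in every fin library.

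The study profiled messenger RNA of adult zebrafish that lack the interleukin 11 receptor, *il11ra* mutants carrying the CRISPR allele bns251, next to their wild-type siblings. Fins were collected 24 hours post amputation (hpa), with 3 libraries per genotype from 1 animal each, and whole ventricles 96 hours post cardiac cryoinjury (hpci), with 2 libraries per genotype pooled from 2 animals each. All 10 libraries came from injured fish, and the allele is a germline mutation carried by the whole animal. The values were read counts per gene that had been divided by a size factor for each library, separately in each tissue, and rounded.

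The extracellular loops of a claudin meet those of claudins on the neighbouring cell to form strands that seal the space between cells. In mammals some claudins tighten this seal and others form pores for selected ions. Zebrafish have more claudin genes than mammals, and many of them bear letters instead of mammalian numbers. In fish skin, which faces water, tight junctions of the superficial epidermis and of ionocytes limit the loss or gain of ions. Occludin, tricellulins, angulins and junctional adhesion molecules lie in the same membranes, and ZO proteins (*tjp* genes) and cingulin link them to actin.

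Libraries and tissue labels were checked first. Sums of normalized counts were 3768621 to 3986121 in fins and 10968602 to 13273996 in ventricles, which corresponded to about 2963659 to 4699029 and 12862399 to 14292521 reads on genes. The mutated gene was lower in mutant fins, by a log2 fold change of -3.48 (SE 0.35, limma, adjusted p = 0.000644). In fins it passed the filter on low values only through the wild-type libraries, so that call is no independent support for a fall. Its log2 fold change in ventricles was -2.23 (limma, adjusted p = 0.306). Summed markers of superficial and basal epidermis reached 5609 to 7767 and 6700 to 8550 normalized counts in fins. Markers of cardiomyocytes reached 214716 to 433436 in ventricles, with mutant ventricle 1 lowest, and that library also had the highest leukocyte sum (8616, against 4977 to 5152 in the others). Ventricles had at most 3 normalized counts over the mucous cell list in any library.

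Claudins took a larger share of the fin table than of the ventricle table. Their summed normalized counts per 1000000 of a library's table total were 1134 to 1286 in wild-type fins and 87.5 to 110 in wild-type ventricles. The tables were normalized separately and the fin table held 0 mitochondrial genes against 29 in the ventricle table, so these levels stand side by side with no test. 10 claudins had at least 50 normalized counts in every wild-type fin library and at most 5 in every ventricle library, namely *cldn1*, *cldn7b*, *cldn23a*, *cldn23b*, *cldna*, *cldnb*, *cldne*, *cldnf*, *cldnh* and *cldnk*. *cldn7b*, whose mammalian counterpart belongs to epithelia, had 184 ± 22.7 per 1000000 in wild-type fins (SD, n = 3) and 0.075 ± 0.11 in wild-type ventricles (SD, n = 2).

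A smaller set was listed higher in ventricles. Of the 22 claudins in both tables, 6 had the higher wild-type mean per 1000000 there, namely *cldn2*, *cldn5a*, *cldn5b*, *cldn11a*, *cldn15b* and *cldnc*. Of these, *cldn2*, *cldn11a*, *cldn15b* and *cldnc* had at most 6 normalized counts in every wild-type fin library. *cldn2* was low in wild-type ventricles too, at 10 and 4. *cldn5b* and *cldn5a* are the fish counterparts of the claudin of vascular endothelium. *cldn5b* had 31.2 ± 2.53 per 1000000 in wild-type ventricles and 21.9 ± 1.56 in wild-type fins. *cldnc* had 9.05 ± 2.47 in wild-type ventricles and 0.26 ± 0.26 in wild-type fins. The number of normalized counts of different genes was not corrected for transcript length, so their order is not an order of expression.

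17 of the 24 claudins of the fin table reached a mean of 10 normalized counts over the 6 fin libraries and were tested with all other such genes. In fins, *il11ra* mutants had higher levels of 9 claudins and a lower level of 1, while 7 did not pass the test (limma on log2 values with a pseudocount of 1, Benjamini-Hochberg adjusted p under 0.05 over all genes). Of all 16741 genes tested, 36.6% passed, 19.6% higher in mutants and 17% lower. The genes that rose were *cldnc*, *cldn5b*, *cldnf*, *cldn23a*, *cldne*, *cldnh*, *cldn23b*, *cldn7b* and *cldnb*, and the gene that fell was *cldn11b*. Of the 9, *cldnc* passed the filter on low values only through the mutant libraries, so its call is no independent support. The median log2 fold change was 0.43 over the 17 claudins and -0.014 over all genes tested. Libraries of the 2 genotypes did not overlap for 13 of the 17, with mutants higher in 11 and lower in 2, against 52.8% of all genes, 26% higher and 26.8% lower. Summed over all listed claudins, wild-type fins had 1286, 1134 and 1283 per 1000000 and mutant fins 1899, 1626 and 1682. At an unadjusted p under 0.05 there were 13 claudins, against 47.9% of all genes. These are bulk samples, so more cells of a type and more RNA per cell cannot be told apart.

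**Figure D1:**
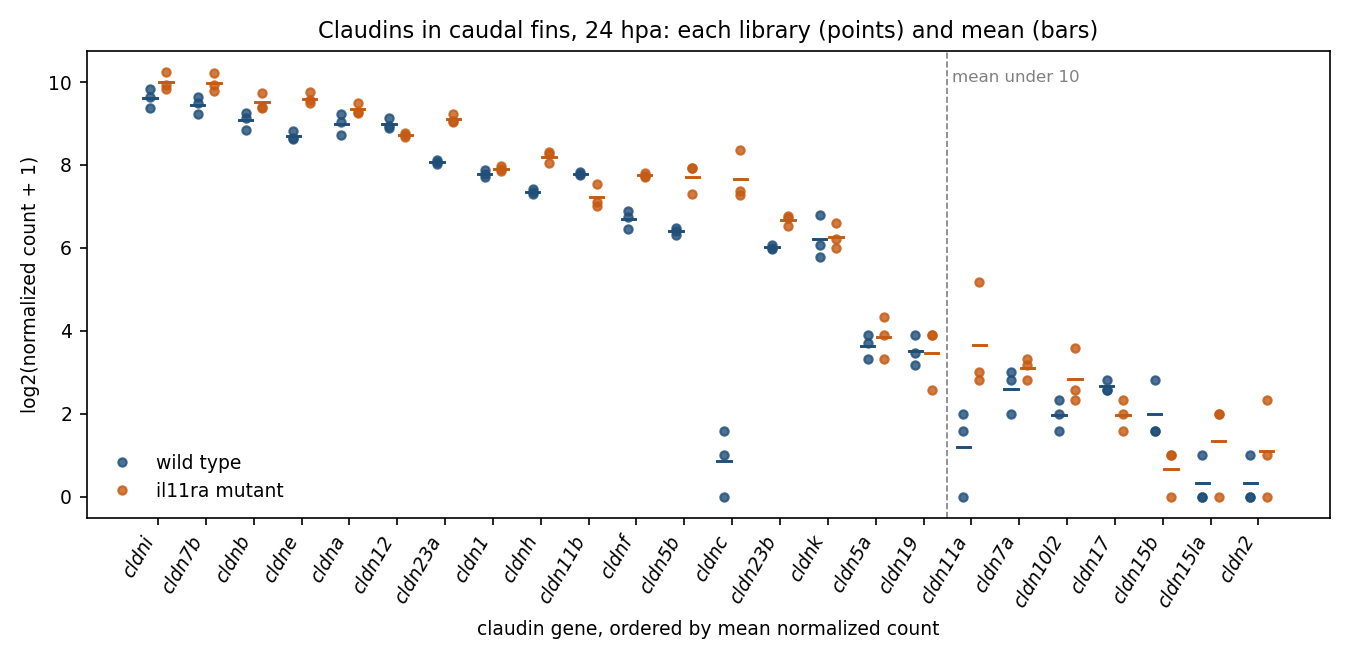
Normalized counts of the 24 claudins of the fin table on a log2(normalized count + 1) axis, with 1 point per library, bars for the mean of 3 libraries, and genes ordered by their mean over the 6 libraries. Genes right of the dashed line had a mean under 10 and were not tested. *cldnc* stands near 0 in wild-type fins and between 153 and 328 normalized counts in mutant fins.

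The largest difference among the tested claudins was that of *cldnc* (ENSDARG00000015955, chromosome 21, 25754268 to 25756119, minus strand). Its normalized counts were 2, 0 and 1 in wild-type fins and 328, 166 and 153 in *il11ra* mutant fins. The gene was thus close to silent in each wild-type fin and was counted well above that in each mutant fin. The summed mutant counts were 216 times the wild-type sum, with an exact binomial 95% interval of 73.4 to 1049 from about 3 and 581 reads, which covers counting error only. On the log2 scale the fitted difference was 6.81 (SE 0.49, limma, adjusted p = 0.000232), and it was 8.37 and 4.28 with pseudocounts of 0.1 and 10 in place of 1. *cldnc* passed the filter on low values only through the mutant libraries, so it could not have been tested without differing. The reference gene table gives this gene the symbol *cldn3d*.

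*cldn5b* (chromosome 10, 43994471 to 43996117, plus strand) followed. It had 79, 88 and 84 normalized counts in wild-type fins and 241, 156 and 242 in mutant fins. All mutant fins lay above all wild-type fins, and the log2 fold change was 1.31 (SE 0.19, limma, adjusted p = 0.00201). The endothelial marker list moved less, with summed normalized counts of 957 to 1019 in wild-type fins and 1015 to 1269 in mutant fins. *pecam1* of that list rose by 0.72 (limma, adjusted p = 0.0147). *tie1*, higher in every mutant fin, had 0.38 and *fli1a* 0.010, and neither passed (limma, adjusted p = 0.0533 and 0.95). *kdrl* had -0.17 (limma, adjusted p = 0.333). *cdh5*, the endothelial cadherin, had 5 to 8 normalized counts in wild-type fins and 0 to 3 in mutant fins. The paralog *cldn5a* had 12, 9 and 14 normalized counts in wild-type fins and 9, 19 and 14 in mutant fins, which overlapped (log2 fold change 0.21, limma, adjusted p = 0.701).

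*cldnf* and *cldn23a* completed the claudins whose log2 fold change was at least 1, a mark that 9.44% of all genes tested passed upward with their adjusted p. No claudin fell by that much, against 5.08% of all genes. *cldnf*, a gene of the chromosome 15 cluster described next, had 106, 118 and 87 normalized counts in wild-type fins and 223, 212 and 209 in mutant fins. The 2 genotypes were well apart, at a log2 fold change of 1.05 (SE 0.14, limma, adjusted p = 0.0015). *cldn23a* (chromosome 10, 15046837 to 15048781, minus strand) had 258, 278 and 268 normalized counts in wild-type fins and 601, 528 and 533 in mutant fins. The wild-type libraries were nearly equal, and every mutant library was far above them (log2 fold change 1.04, SE 0.088, limma, adjusted p = 0.000365). Its neighbour *cldn23b*, which lies beside it on the same strand of chromosome 10 (15050469 to 15053614), rose by 0.65 (SE 0.15, limma, adjusted p = 0.0121), from 62 to 66 normalized counts to 91 to 108.

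**Figure D2:**
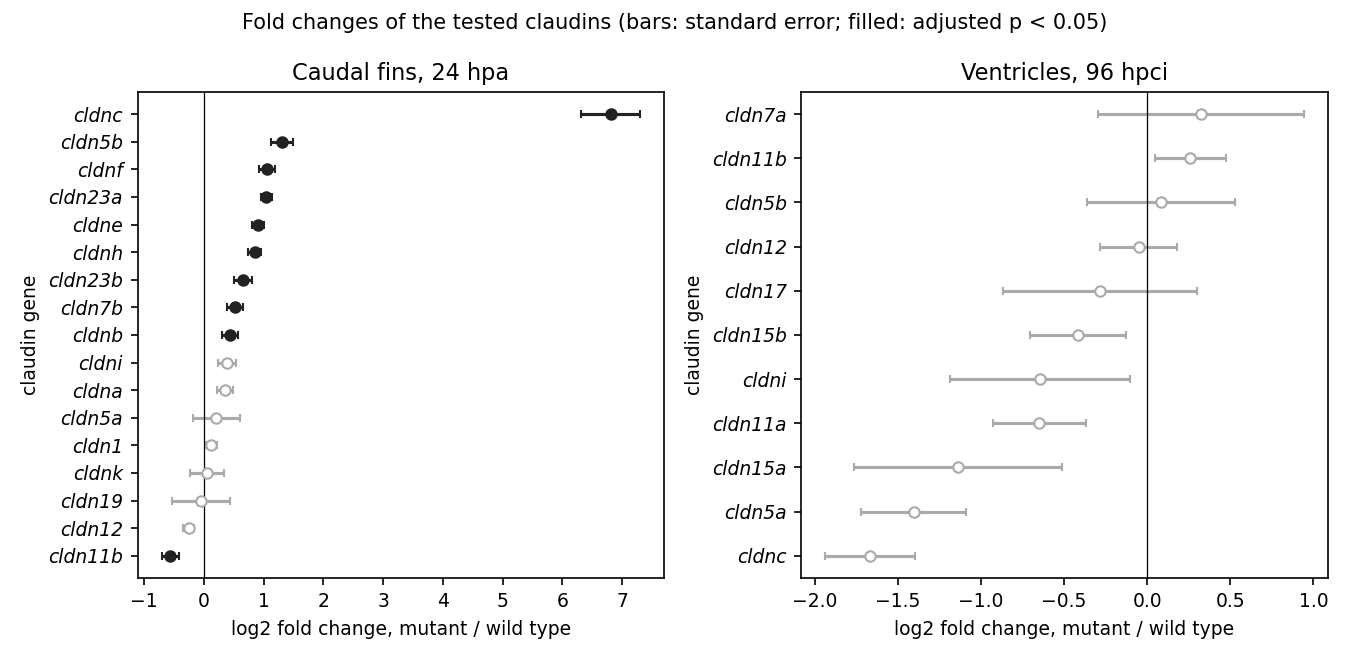
Log2 fold changes of *il11ra* mutants over wild-type siblings for the 17 claudins tested in fins (left) and the 11 tested in ventricles (right), with bars for the standard error and filled points for adjusted p under 0.05. In fins 9 filled points lie right of 0 and 1 lies left, and in ventricles no point is filled.

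11 of the 28 claudins have another claudin within 100 kb, and these groups were followed as neighbours. The chromosome 15 group runs on the minus strand from *cldnj* at 2631421 through *cldne* and *cldnf* to *cldna*, which ends at 2657508. *cldne* had 401, 393 and 453 normalized counts in wild-type fins and 862, 718 and 754 in mutant fins. No library overlapped, and the gene rose by 0.90 on the log2 scale (SE 0.10, limma, adjusted p = 0.000887). *cldna* had 598, 423 and 526 in wild-type fins and 722, 608 and 623 in mutant fins. These did not overlap but lay close, at a log2 fold change of 0.35 (SE 0.14, limma, adjusted p = 0.0775). *cldnj*, which zebrafish need for normal ear stones, was not listed in the fin table.

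The chromosome 21 group holds *cldnh*, *cldnc* and *cldnb* between 25739295 and 25766840. *cldnh*, named *cldn3c* in the reference gene table, had 171, 156 and 162 normalized counts in wild-type fins and 317, 306 and 262 in mutant fins. It rose by 0.85 (SE 0.11, limma, adjusted p = 0.00141). *cldnb*, known in zebrafish from the epidermis and the migrating lateral line primordium, had 612, 458 and 558 in wild-type fins and 854, 665 and 676 in mutant fins. It was higher in each mutant fin than in any wild-type fin, though the gap between 612 and 665 was smaller than the spread within each genotype (log2 fold change 0.43, SE 0.14, limma, adjusted p = 0.0411). The 3 genes of this group passed the test upward, with log2 fold changes between 0.43 and 6.81, against 19.6% of all genes tested. Of these, *cldnc* passed the filter only through the mutant libraries. *cldnb* lost its call in 4 of the 6 fits that left out 1 library.

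Genes that are not claudins differed around the chromosome 21 group too, in both directions, and are named here after their values were seen. On one side *bicdl2l* rose by 1.36 (adjusted p = 0.00712) and *abhd11* fell by 0.86 (limma, adjusted p = 0.0140). On the other side *zgc:136892* rose by 1.22 (adjusted p = 0.000344), and *mettl27* and *nf2b* fell by 0.59 and 0.50 (limma, adjusted p = 0.0152 and 0.00437). *zgc:112437*, which lies between *cldnb* and *cldnd* and carries a claudin name in the ventricle table's protein annotation, had 1, 0 and 0 normalized counts in wild-type fins and 12, 5 and 10 in mutant fins. It was below the filter and was not tested. Beside the chromosome 15 group, *CR382327.1* rose by 0.74 (adjusted p = 0.0226) and *dnajc30b* had 0.28 (limma, adjusted p = 0.293).

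**Figure D3:**
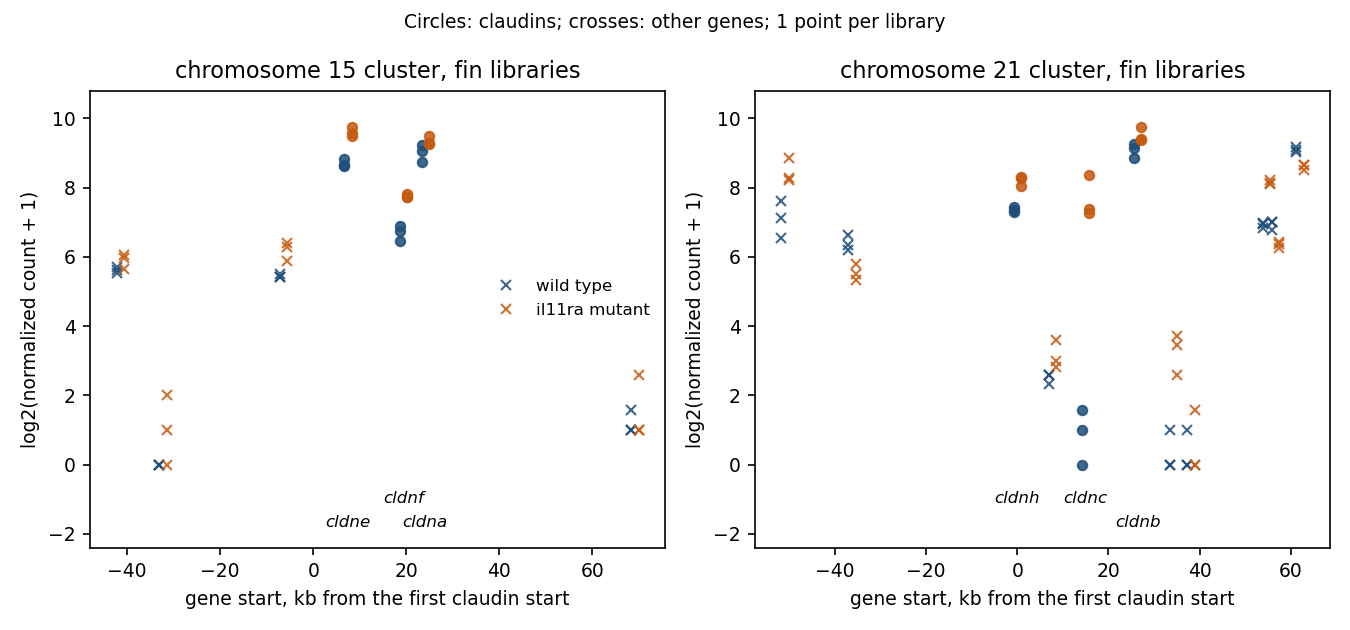
Normalized counts in the 6 fin libraries, on a log2(normalized count + 1) axis, of the genes in and around the claudin groups of chromosomes 15 (left) and 21 (right), by the distance of each gene's annotated start from that of the first claudin. Circles are claudins and crosses other genes. Within each group the mutant circles lie above the wild-type circles at every claudin.

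4 claudins lie on chromosome 10, which also carries *il11ra* (13305610 to 13396720). They are *cldn23a* and *cldn23b*, at 1.65 Mb from it, *cldn7b* at 8.75 Mb and *cldn5b* at 30.6 Mb. All 4 rose in mutant fins, against 19.6% of all genes tested. Mutants and siblings can differ in alleles linked to the mutated gene. Of the 33 genes tested within 2 Mb of *il11ra*, 15 passed the test in fins, 45.5% against 36.6% of all genes, with 7 higher and 8 lower. These 33 include *cldn23a* and *cldn23b* themselves, which are both among the 7 higher. Whether linked alleles took part in these differences was not tested.

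The claudins with the highest mean counts in fins were *cldni*, *cldn7b*, *cldnb*, *cldne* and *cldna*. *cldn7b* had 792, 598 and 718 normalized counts in wild-type fins and 1185, 877 and 968 in mutant fins, without overlap, and rose by 0.52 (SE 0.14, limma, adjusted p = 0.0227). *cldni* had 910, 667 and 800 in wild-type fins and 1211, 911 and 982 in mutant fins. The nearest libraries, 910 and 911, almost touched, and the log2 fold change of 0.39 did not pass (SE 0.14, limma, adjusted p = 0.0665). *cldni* overlaps the opposite-strand leukocyte gene *coro1a*, which rose in mutant fins by 0.67 (SE 0.105, limma, adjusted p = 0.00297), and whether counting used the strand is not stated.

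*cldn11b* was the one claudin that fell in mutant fins. In mammals this claudin forms the strands of central myelin. It had 219, 225 and 217 normalized counts in wild-type fins and 129, 184 and 138 in mutant fins. The wild-type libraries were nearly equal, mutant fin 2 was closest to them, and the log2 fold change was -0.57 (SE 0.14, limma, adjusted p = 0.0189). The other claudins of myelin and Schwann cells that passed the filter did not pass the test. *cldnk*, used as a marker of myelinating glia in zebrafish, had 54, 66 and 110 against 63, 96 and 73 (log2 fold change 0.056, adjusted p = 0.892), and *cldn19* had 8, 14 and 10 against 5, 14 and 14 (-0.046, limma, adjusted p = 0.946). The glial marker list had 775 to 848 normalized counts in wild-type fins and 932 to 1086 in mutant fins, with *mbpa* higher by 1.17 and *plp1b* by 1.38 (limma, adjusted p = 0.005 and 0.0269). The other 3 genes of that list, *mbpb*, *mpz* and *sox10*, had log2 fold changes of 0.21, 0.027 and 0.096 and did not pass (limma, adjusted p = 0.141, 0.94 and 0.63).

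2 more claudins with over 200 normalized counts did not pass. *cldn1*, needed for the water barrier of mammalian skin, had 233, 209 and 221 normalized counts in wild-type fins and 231, 240 and 250 in mutant fins. The genotypes overlapped, and the log2 fold change was 0.12 (SE 0.094, limma, adjusted p = 0.334). *cldn12* had 476, 489 and 557 in wild-type fins and 425, 406 and 439 in mutant fins. It was lower in each mutant fin, at -0.26 (SE 0.090, limma, adjusted p = 0.0542) and passed when TMM or upper-quartile factors were recomputed on the deposited values.

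By name, the rises were spread over 3 groups. Of the letter-named claudins 5 of 8 rose, of those with a number known in mammals for barriers 2 of 6 rose and 1 fell, and of the other numbers 2 of 3 rose, beside 19.6% higher and 17% lower over all genes. Of the 5 letter-named claudins that rose, *cldnc* passed the filter only through the mutant libraries, so its call is no independent support. The 3 groups hold few genes, and no difference between them was tested. They follow the authors' gene names. By the reference gene table *cldn17* is *CLDN8*, *cldnc* is *cldn3d* and *cldnh* is *cldn3c*, which would move these genes to the barrier numbers. The claudins with a number known in mammals for ion channels were listed in fins with 5 genes, none of which reached the filter. *cldn2*, *cldn10l2*, *cldn15b*, *cldn15la* and *cldn17* each had at most 11 normalized counts in every fin library. The remaining 2 below the filter were *cldn7a*, with 3 to 9, and *cldn11a*, with 0, 2 and 3 in wild-type fins and 35, 6 and 7 in mutant fins. With the filter dropped, *cldn11a* passed at 2.46 (SE 0.77, limma, adjusted p = 0.0415). Mutant fin 1, with 35 normalized counts, carried most of that difference.

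Of the 10 claudins that passed in fins, 7 did so in each fit that left out 1 of the 6 libraries. They were *cldnc*, *cldn5b*, *cldnf*, *cldn23a*, *cldne*, *cldnh* and *cldn23b*. The share of all called genes that passed in each of the 6 fits was not counted. In each of these fits *cldnc* reached the filter only through the mutant libraries, so its calls are no independent support. *cldnb* did not pass without wild-type fin 2 or 3 or mutant fin 1 or 3 (limma, adjusted p up to 0.122), and *cldn7b* did not without wild-type fin 2 or 3 or mutant fin 1 (up to 0.0735). *cldn11b* did not pass without wild-type fin 1, 2 or 3 or mutant fin 3 (limma, adjusted p up to 0.0599), so the count of claudins lower in mutants was then 0.

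Marker sums of other cells in fins are given beside these claudins. Superficial epidermis markers had 5865 to 7767 normalized counts in wild-type fins and 5609 to 6584 in mutant fins, and basal epidermis markers 6700 to 8550 and 6919 to 7764. Neither list separated the genotypes. Ionocyte markers had 731 to 807 in wild-type fins and 896 to 1248 in mutant fins, and *foxi3a* and *foxi3b* of that list rose, by 1.36 and 2.12 on the log2 scale (limma, adjusted p = 0.0198 and 0.00164). *slc12a10.2* had 3, 5 and 3 normalized counts in wild-type fins and 330, 30 and 107 in mutant fins, and like *cldnc* it passed the filter only through the mutant libraries. *atp6v1aa*, with most of the list's counts, had a log2 fold change of -0.015 and *trpv6* 0.23, and neither passed (limma, adjusted p = 0.901 and 0.546). Mucous cell markers had 1268 to 1632 in wild-type fins and 349 to 501 in mutant fins. Leukocyte markers had 1587 to 1932 and 3626 to 4370, and osteoblast markers 1730 to 2091 and 959 to 1212. The part of these cells in the claudin differences was not tested.

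Other tight junction genes were read from a list of 57 scaffold, membrane and polarity genes, of which 43 were tested in fins. Of these, 18 rose, 5 fell and 20 did not pass, with a median log2 fold change of 0.33, beside 19.6% higher, 17% lower and a median of -0.014 over all genes. Among membrane proteins 9 of 18 rose and 3 fell, among scaffolds 7 of 16 rose and 2 fell, and among polarity proteins 2 of 9 rose. The falls of membrane proteins include *igsf5b*, which passed the filter only through the wild-type libraries, so its call is no independent support. The 3 largest rises were *pard6a*, a subunit of the Par polarity complex, *cgnb*, a cingulin, and *ildr1a*, an angulin of the corners where 3 cells meet in mammals.

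*pard6a* had 92, 185 and 197 normalized counts in wild-type fins and 350, 411 and 314 in mutant fins (log2 fold change 1.24, SE 0.27, limma, adjusted p = 0.0103). *cgnb* had 123, 159 and 149 in wild-type fins and 356, 299 and 360 in mutant fins (1.23, SE 0.13, limma, adjusted p = 0.000757). *ildr1a* had 278, 296 and 426 in wild-type fins and 764, 672 and 702 in mutant fins (1.12, SE 0.16, limma, adjusted p = 0.00198). For each of them every mutant fin lay above every wild-type fin. The occludins, chosen after their values were seen, rose too, *oclnb* by 1.06 and *oclna* by 0.63 (limma, adjusted p = 0.000606 and 0.00517), as did the tricellulins *marveld2b* and *marveld2a*, by 0.50 and 0.34 (limma, adjusted p = 0.00482 and 0.0235).

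The 3 largest falls were those of *igsf5b* and *jam2a*, listed as membrane genes, and *sympk*, listed as a scaffold gene. *igsf5b*, an immunoglobulin family member, had 12, 22 and 17 normalized counts in wild-type fins and 3, 9 and 3 in mutant fins (log2 fold change -1.69, SE 0.50, limma, adjusted p = 0.0324). It passed the filter on low values only through the wild-type libraries, where it was high, so its call is no independent support for a fall. It could be fitted in 4 of the 6 fits that left out a library and passed in 1 of them, failing without wild-type fin 1, mutant fin 1 or mutant fin 3 (limma, adjusted p up to 0.0850). *jam2a*, a junctional adhesion molecule that zebrafish also need for fusion of muscle precursors, had 96, 120 and 104 in wild-type fins and 40, 59 and 64 in mutant fins (-0.98, SE 0.21, limma, adjusted p = 0.01). *sympk*, which codes for symplekin, a protein of tight junctions that also takes part in RNA processing in the nucleus, had 667, 654 and 642 in wild-type fins and 405, 426 and 479 in mutant fins (-0.59, SE 0.087, limma, adjusted p = 0.00245). In all 3 the highest mutant fin stayed below the lowest wild-type fin.

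In ventricles 11 of the 26 claudins reached a mean of 10, and none passed the test, as no gene of the 17411 tested did (0%, smallest adjusted p 0.0745 by limma). At an unadjusted p under 0.05 there were 2 claudins, *cldnc* and *cldn5a*, both lower in mutants, against 6.74% of all genes. The log2 fold change was below 0 for 8 of the 11 and above 0 for 3, with a median of -0.42 against 0.010 over all genes. The 2 genotypes did not overlap for 6 of the 11, with mutants lower in 5 and higher in 1, against 35.3% of all genes, 17.1% lower and 18.2% higher. Of those 5, *cldni* reached the filter only through the wild-type libraries, with means of 14.5 in wild-type and 8.5 in mutant libraries. Of the other 15 claudins, 3 were at 0 in every library and none exceeded 10 normalized counts. With 2 pooled libraries per genotype the spread was poorly known.

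**Figure D4:**
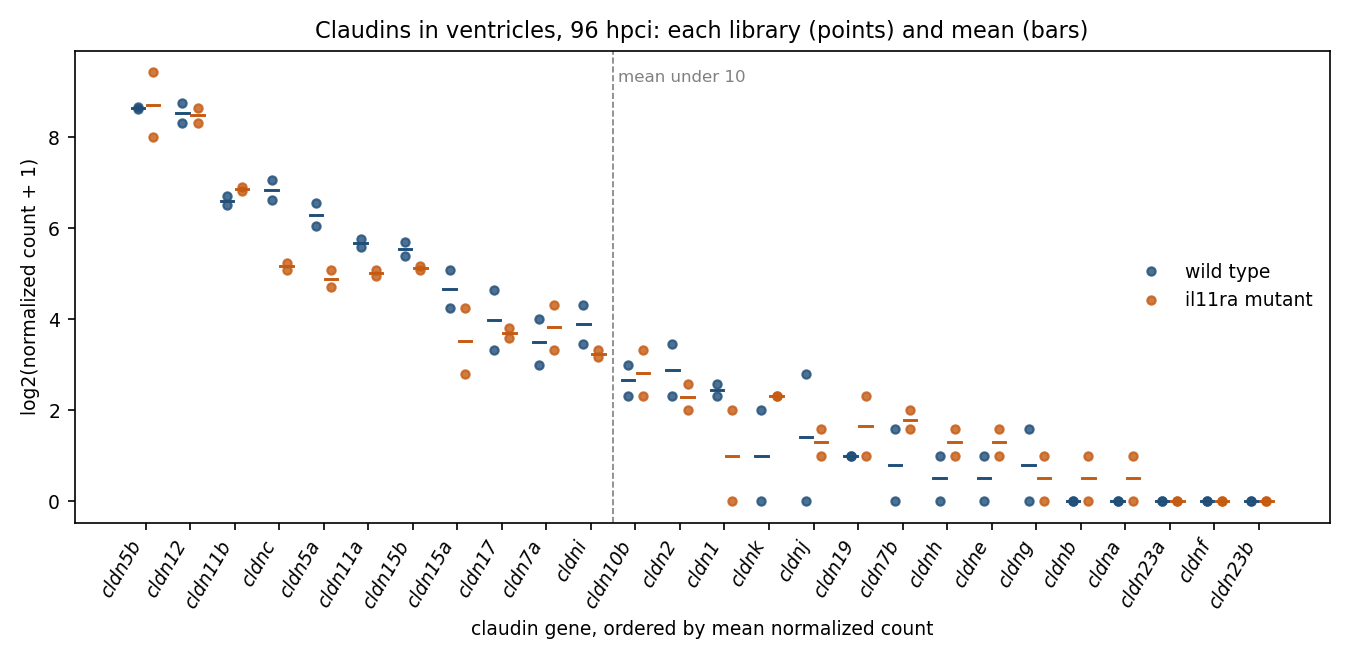
Normalized counts of the 26 claudins of the ventricle table on a log2(normalized count + 1) axis, with 1 point per pooled library, bars for the mean of 2 libraries, and genes ordered by their mean. *cldnc* and *cldn5a* have both mutant points below both wild-type points, and the mutant points of *cldn5b* lie on either side of the wild-type points.

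3 claudins had a mean of at least 100 normalized counts in ventricles. *cldn5b* had 391 and 404 in wild-type ventricles and 690 and 257 in mutant ventricles. The mutant libraries lay on opposite sides of the wild-type pair, and the log2 fold change of 0.084 had an SE of 0.44 (limma, adjusted p = 0.983). *cldn12* had 319 and 432 in wild-type ventricles and 401 and 320 in mutant ventricles, which overlapped (-0.051, SE 0.23, limma, adjusted p = 0.979). *cldn11b* had 90 and 104 against 120 and 112, higher in both mutant libraries (0.26, SE 0.21, limma, adjusted p = 0.876). The endothelial marker list had 11666 and 13261 normalized counts in wild-type ventricles and 11939 and 10735 in mutant ventricles. Without mutant ventricle 1, the library with the fewest cardiomyocyte counts, the log2 fold change of *cldn5b* was -0.63. Without mutant ventricle 2 it was 0.79, so its sign depended on which mutant library was kept.

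*cldnc* had 97 and 132 normalized counts in wild-type ventricles and 33 and 37 in mutant ventricles. Both mutant libraries lay far below either wild-type library, at a log2 fold change of -1.67 (SE 0.27, limma, unadjusted p = 0.000842, adjusted p = 0.267). Without mutant ventricle 1 it was -1.59. *cldn5a*, which zebrafish need for the barrier around brain ventricles, had 65 and 93 against 33 and 25 (-1.41, SE 0.32, limma, unadjusted p = 0.00442, adjusted p = 0.44). *cldn11a* had 47 and 53 against 30 and 33 (-0.65, SE 0.28, limma, adjusted p = 0.749). *cldn15b* had 41 and 51 against 35 and 33, and *cldn15a*, which in zebrafish acts in forming the gut lumen, had 33 and 18 against 6 and 18. The last of these overlapped. Superficial epidermis markers were counted in ventricles at 3137 and 3749 in wild-type and 1981 and 2724 in mutant libraries. Nearly all of these were *krt4*, with 2988 and 3566 against 1838 and 2509. *krt17* was low, with 18 and 16 against 8 and 6, and *evpla* had 1 and 2 against 3 and 1. *ppl* had 65 and 68 against 69 and 86, and *grhl1* had 65 and 97 against 63 and 122. Whether these counts came from epidermal cells, and what part such cells had in the claudin differences, was not tested. Of the ionocyte list, *ca15a*, *foxi3a* and *foxi3b* had means under 1 in ventricles, and *slc12a10.2* and *trpv6* at most 5 normalized counts. *atp6v1aa* of that list had 572 and 550 in wild-type ventricles and 720 and 524 in mutant ventricles.

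Of the 37 tight junction partners tested in ventricles, 0 passed by limma, 5 had an unadjusted p under 0.05 against 6.74% of all genes, and the median log2 fold change was -0.098. 6 claudins were tested in both tissues, *cldn5a*, *cldn5b*, *cldn11b*, *cldn12*, *cldnc* and *cldni*. *cldnc* and *cldni* were higher in every mutant fin and lower in both mutant ventricle libraries. *cldn11b* was lower in every mutant fin and higher in both mutant ventricle libraries. In either direction, genotypes did not overlap for 52.8% of all genes tested in fins and 35.3% in ventricles. For *cldni* the ventricle values were low, 10 and 19 in wild-type and 8 and 9 in mutant libraries. It reached the filter there only through the wild-type libraries, so its fall has no independent support. In fins *cldnc* reached the filter only through the mutant libraries, so its rise there has none either. The tissues differed in time, injury and normalization, and a difference between their genotype effects was not tested.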

How the data were processed

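Adult *il11ra* mutants and wild-type siblings gave 6 caudal fin libraries (24 hpa) and 4 ventricle libraries (96 hpci), grouped by their labels. Per the labels, reads were processed with Trimmomatic 0.39, STAR 2.7.3a, featureCounts 1.6.5 and DESeq2 1.26 on GRCz11, from stranded, single-end libraries. The strand setting of the counting is not given in the sources used here. The deposited values are normalized counts per gene, a signal that the authors made by dividing counts by size factors within a tissue and rounding. From the gaps that rounding leaves, 1 read was worth 0.802 to 1.34 in fins and 0.836 to 1.03 in ventricles. Whole reads were not recovered, so count models were not used, and few counts give wide counting error.

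Genes with a mean of at least 10 were fitted in R 4.3.3 with limma 3.58.1 (empirical Bayes with trend) on log2(normalized count + 1), mutant against wild type, in each tissue alone. P-values were two-sided and adjusted by the Benjamini-Hochberg method over all genes, with a threshold of 0.05, and fold changes on this scale understate those of low genes. The fits were tested on simulated data, with the same spread for all genes. Simulated 2-fold changes were called for 98% of the changed genes in fins and 30% in ventricles. For 4-fold changes these shares were 96% and 94%. False calls numbered 8 in fins and 0 in ventricles. Tables and figures used Python 3.11.15 with pandas 2.3.3 and matplotlib 3.10.9.

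All claudins were counted. Values by library were given for claudins past the threshold in fins with log2 fold changes of 1 or more in size, those with a mean of at least 100 in ventricles, the 5 with the highest mean in fins, and the 3 largest rises and falls among tight junction partners. Other genes were named after their values were seen. The members and lists were chosen with earlier results of these data known. The authors' gene names were used, and all 28 members matched the reference gene table, 18 of them under the same symbol. Alternatives were other pseudocounts, filters and scaling factors, robust moderation, a minimum fold change, a replicate block and each library left out. No sequence or transcript length was used.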

Additional observations from a re-analysis of the deposited data

Results flagged for a closer look

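Of the 6 claudins tested in both tissues, 3 had genotypes without overlap in each tissue but in opposite directions. Genotypes did not overlap for 52.8% of all genes tested in fins and 35.3% in ventricles. The share of all genes with opposite directions was not counted. *cldnc* had a log2 fold change of 6.81 in fins and -1.67 in ventricles. *cldni* had 0.39 in fins and -0.64 in ventricles, where it reached the filter only through the wild-type libraries. *cldn11b* had -0.57 in fins and 0.26 in ventricles. Of these values, those of *cldnc* and *cldn11b* in fins passed the test. *cldnc* reached the filter in fins only through the mutant libraries, so its call is no independent support. *cldn11b* lost its call in 4 of the 6 fin fits that left out 1 library. The difference between tissues was not tested in any of the 3.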

How the results depend on the processing

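In fins the 9 higher claudins and 1 lower became 4 and 0 with a log2 fold change required to be 1 or more in size, and the higher and lower tight junction partners 4 and 1. Of all genes tested, 9.44% were higher and 5.08% lower at that cut. The 4 claudins include *cldnc*, and the 1 lower partner was *igsf5b*. *cldnc* reached the filter only through the mutant libraries and *igsf5b* only through the wild-type libraries. With TMM or upper-quartile factors 2 claudins were lower. Those settings called 6198 and 6206 of all genes in either direction, against 6132 in the main fit. At a minimum mean of 50 the median log2 fold change of claudins was 0.52 in fins and -0.051 in ventricles, where 3 claudins then had no overlap, and without a filter the ventricle median was -0.051. The share of all genes without overlap was not counted at a minimum mean of 50. The replicate block gave 12 called claudins in fins, 11 of them higher, and 0 in ventricles. In fins *cldni* and *cldna* were added (limma, adjusted p = 0.00984 and 0.0287). With the block 5703 of all fin genes were called, against 6132 without it. Deviations from the genotype means had correlations of -0.084 to 0.090 between same-numbered libraries in fins and -0.19 in ventricles. Between differently numbered libraries they were -0.11 to 0.086 and 0.19. Such deviations cancel within a genotype, so with few libraries these values cannot decide on pairing. The numbers were not taken as pairs. Crossed ventricle numbers as a block, tried after seeing the data, also gave 0 called claudins.

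Leaving out 1 library gave 7 to 11 higher and 0 to 1 lower claudins in fins. Partners then numbered 14 to 18 higher and 3 to 4 lower. Of all genes, 4180 to 5317 were called, against 6132 with all fin libraries. 13 to 15 claudins had no overlap, and medians were 0.36 to 0.57. In ventricles leaving out 1 library gave medians of -0.57 to -0.38 and 8 to 9 claudins without overlap, with only 1 library left in a genotype. Fewer libraries overlap less readily, and the share of all genes without overlap was not counted in these fits. Log2 fold changes then crossed 0 for *cldnk* (-0.16 to 0.35), *cldn5a* (-0.029 to 0.47) and *cldn19* (-0.27 to 0.39) in fins, and for *cldn12* (-0.27 to 0.17), *cldn5b* (-0.63 to 0.79), *cldn7a* (-0.18 to 0.82) and *cldn17* (-0.95 to 0.37) in ventricles. The cause of these changes was not tested.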
